A study of Mus musculus with 8 samples.

Results

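Cadherins, Epcam and the factors that govern the change between epithelial and mesenchymal states were followed across 8 mouse kidney libraries: Cdh1, Cdh2, Cdh4, Cdh6, Cdh11, Cdh16, Epcam, Snai1, Snai2 and Zeb1. These 10 genes were picked by symbol out of the 49315 genes counted, and all 10 were among the 18485 with enough reads to test. The study compared kidneys of mice with a conditional knockout of Kdm1a (4 libraries) with control kidneys (4 libraries), by sequencing of poly(A)-selected RNA from frozen tissue. Kdm1a encodes LSD1, a histone demethylase that works in repressor complexes. The labels give both groups as kidney and name the genotype only as control (also called wild type) or conditional knockout. The Cre driver, the strain and the age of the animals are not known here, nor is the cell type in which the gene was deleted. Sex is not stated in the labels either, and Y-linked transcripts by library are given below. Libraries are numbered 1 to 4 in each group as one kidney sample each; the labels do not state that each came from a separate animal, so p-values measure the spread between these samples.

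Cadherins are calcium-dependent adhesion proteins that join neighbouring cells at adherens junctions, where their tails bind catenins. Cdh1 (E-cadherin) is the general epithelial cadherin, whereas the mouse proximal tubule relies mostly on Cdh2 (N-cadherin); Cdh16 (Ksp-cadherin) is largely particular to kidney tubules, Cdh6 (K-cadherin) is known from the forming proximal tubule, and Cdh11 (OB-cadherin) is a cadherin of mesenchyme. Epcam is an adhesion protein of epithelia that is unrelated to cadherins, and Snai1, Snai2 and Zeb1 are zinc-finger repressors that silence epithelial genes, Cdh1 first among them, through E-box sequences. The SNAG sequence at the start of Snai1 and Snai2 is known to bind LSD1, the product of the gene deleted in this study.

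The first 20 codons of Snai1 and Snai2, which hold that SNAG sequence, are shown from GENCODE M21 (GRCm38), 5′ to 3′ on the plus strand, because LSD1 is known to bind the protein encoded there. Capitals mark the bases that are identical in the pair. The Snai1 stretch lies at chr2:167538290-167538349 and the Snai2 stretch at chr16:14705974-14706033.
Snai1: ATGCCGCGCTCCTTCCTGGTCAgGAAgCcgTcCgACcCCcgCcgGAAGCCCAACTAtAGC
Snai2: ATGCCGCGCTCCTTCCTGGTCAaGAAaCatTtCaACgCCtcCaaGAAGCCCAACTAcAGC
The pair is identical at 48 of 60 bases (80.0%), and the first 22 bases carry no difference.

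The 250 bases before the start of Epcam, Snai1 and Cdh6 are shown because the E-box form CACCTG is the sequence that these repressors are known to read. They come from RefSeq (GRCm38.p6), whose table held 3 of the 10 genes, and capitals mark CACCTG or its reverse complement CAGGTG, searched on both strands. Epcam lies at chr17:87635729-87635978 on the plus strand, Snai1 at chr2:167537945-167538194 on the plus strand and Cdh6 at chr15:13173676-13173925 on the minus strand.
Epcam: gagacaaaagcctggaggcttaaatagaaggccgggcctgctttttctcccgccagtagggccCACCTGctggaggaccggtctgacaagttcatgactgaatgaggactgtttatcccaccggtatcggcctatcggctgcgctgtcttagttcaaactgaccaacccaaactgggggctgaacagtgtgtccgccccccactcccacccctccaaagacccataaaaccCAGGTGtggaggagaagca
Snai1: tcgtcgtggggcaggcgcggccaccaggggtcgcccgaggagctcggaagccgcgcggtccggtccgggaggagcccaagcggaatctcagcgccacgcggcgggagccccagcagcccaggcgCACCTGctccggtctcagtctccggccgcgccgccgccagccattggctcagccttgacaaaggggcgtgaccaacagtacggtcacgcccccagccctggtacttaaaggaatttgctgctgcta
Cdh6: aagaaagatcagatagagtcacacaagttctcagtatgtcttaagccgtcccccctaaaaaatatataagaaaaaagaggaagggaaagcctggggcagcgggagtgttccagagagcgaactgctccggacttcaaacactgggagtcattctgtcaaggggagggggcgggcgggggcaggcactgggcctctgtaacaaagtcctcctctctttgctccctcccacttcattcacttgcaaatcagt
Epcam held 2 matches, 187 and 19 bases before its start, and Snai1 held 1 match, 126 bases before its start. The Cdh6 window held 0 matches. Among 32851 promoter windows of the same length, 17.2% held at least 1 match and 2.06% held at least 2. A match is a description of the letters and not a binding site.

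The libraries held between 19524945 and 28544511 counts, so that 1 count stood for 0.0350 to 0.0512 counts per 1000000 counts (CPM), the unit of the levels below. CPM were computed with library sizes scaled by the trimmed mean of M values (TMM). Kdm1a was lower in each knockout library, at 90.9 to 95.3 CPM against 110.0 to 120.0 CPM in controls (log2 fold change -0.27, SE 0.05, adjusted p = 0.0194 by edgeR; exact two-sided permutation p = 0.0286, the smallest that 70 assignments allow). The counts cover the whole gene, and which exons were deleted is not given. The call was lost when control 1 or 3, or knockout 1, 2 or 4, was left out. The libraries did not form clean groups. Summed markers of adrenal cortex and medulla, the gland next to the kidney, reached 2770 CPM in knockout 1, 383 CPM in knockout 4 and 154 CPM in control 4, against 17.7 to 24.7 CPM in the other 5 libraries. Transcripts of the Y chromosome were high in controls 1, 3 and 4 and knockouts 2 and 3 and low in control 2 and knockouts 1 and 4. Earlier results of these data placed control 2 and knockout 3 between the groups. In bulk tissue, fewer cells of a type and less RNA per cell cannot be told apart.

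Of the 10 genes, Snai2 and Zeb1 rose in the knockout kidneys and none fell at an adjusted p under 0.05 (edgeR quasi-likelihood test, Benjamini-Hochberg adjustment over all genes tested). Snai2 was 24.2% higher and Zeb1 40.7% higher in the knockout mean. Cdh6 and Cdh16 had the lowest knockout means relative to control, 43.8% and 40.3% below, but the libraries of each group were spread widely and neither gene passed. Epcam differed by 2.06%. Across all genes tested, 14.9% were called and 6.61% were called higher, while 8.27% were called lower, so 2 of 10 is a share near the background. An unadjusted p under 0.05 was found for 6 of 10, against 35.1% of all genes. The median log2 fold change of the 10 genes was 0.09, against 0.00 over all genes tested.

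**Figure D1:**
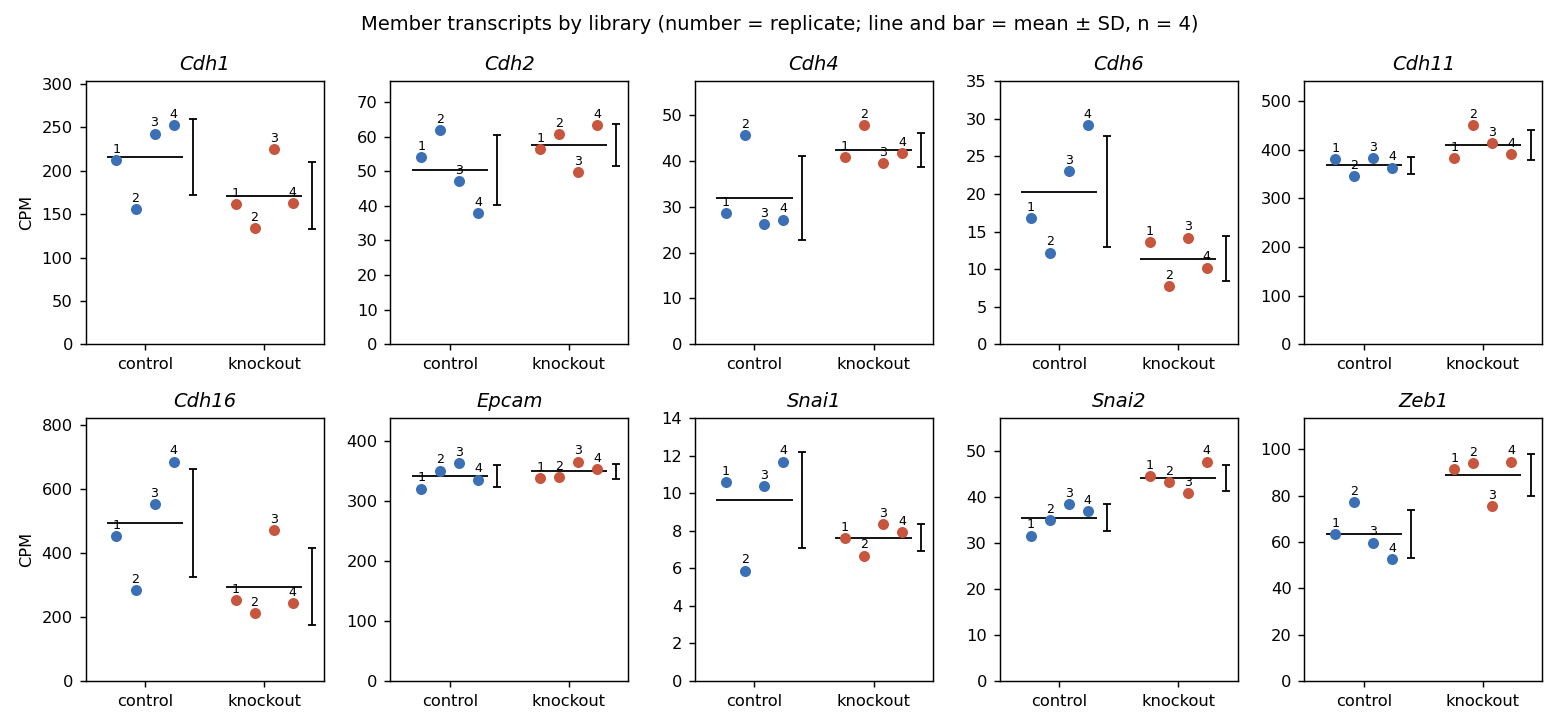
Level in CPM (y axis) of each of the 10 genes in the 4 control and 4 knockout libraries. Each numbered point is a library, the horizontal line is the group mean and the error bar is the SD. Snai2 is the gene whose groups do not overlap, at 31.6 to 38.5 CPM in controls and 40.8 to 47.7 CPM in knockouts, while Epcam stays between 320 and 365 CPM in all libraries.

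Levels were first compared between genes per length, as CPM per 1000 exon bases averaged over all 8 libraries. Epcam had the highest level at 169 and Cdh16 followed at 104, although Cdh16 spanned 56.0 to 181 and so overlapped with Epcam. Cdh11 at 43.7 and Cdh1 at 42.3 could not be ordered, with ranges of 38.8 to 50.7 and 29.2 to 55.3. Snai2 came next at 19.6 (15.6 to 23.5), below every library's value for those 4 genes and above every library's value for the 5 genes that followed. Those 5 overlapped with their neighbours in the order: Zeb1 at 7.53, Cdh2 at 6.68, Cdh6 at 6.02, Snai1 at 5.34 and Cdh4 at 5.13. These means pool both groups, and some orders differed within a group. Cdh6 had the highest mean of those 5 in controls (7.71) and the lowest in knockouts (4.34). The mean of Cdh1 was above that of Cdh11 in controls (47.2 against 41.3) and below it in knockouts (37.4 against 46.0). The length of Cdh6 is uncertain, since the deposited gene model covers 29.2% of its exon bases in GENCODE M21.

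**Figure D2:**
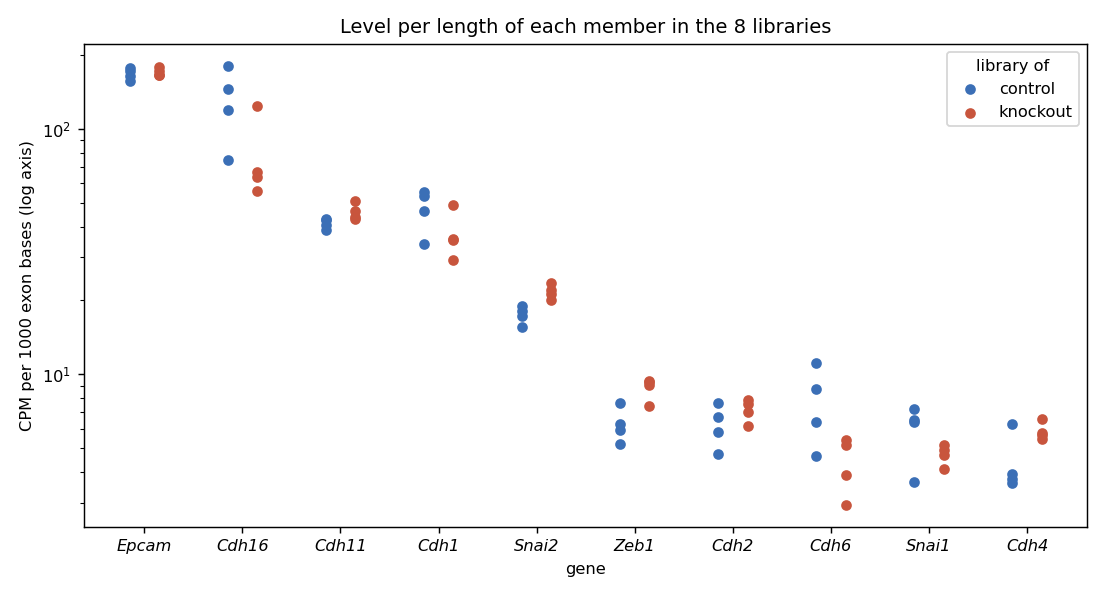
Level of the 10 genes in CPM per 1000 exon bases (log axis), one point for each library, coloured by group and ordered by the mean. Epcam and Cdh16 stand highest at means of 169 and 104, Cdh11 and Cdh1 overlap at pooled means of 43.7 and 42.3, and the 5 lowest genes overlap with means between 5.13 and 7.53.

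Cdh1, the cadherin of most epithelia (ENSMUSG00000000303, chr8:106603351-106670246, plus strand), was measured at 212, 156, 243 and 253 CPM in controls 1 to 4 and at 162, 134, 225 and 163 CPM in knockouts 1 to 4. Control 2 lay among the knockouts and knockout 3 among the controls, so the groups overlapped. The means were 216 ± 43.8 and 171 ± 38.7 CPM (SD, n = 4 each; log2 fold change -0.34, SE 0.19, adjusted p = 0.222 by edgeR). With libraries left out in turn, Cdh1 passed in the fit without control 2 (-0.47, adjusted p = 0.0473), which called 37.4% of all genes. Among the 5 libraries with high Y-linked transcripts, controls spanned 212 to 253 CPM and knockouts 134 to 225 CPM, while among the other 3 the single control, at 156 CPM, was below both knockouts at 162 and 163 CPM.

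Cdh16, the kidney-tubule cadherin (ENSMUSG00000031881, chr8:104601911-104624396, minus strand), stood at 453, 284, 551 and 685 CPM in controls and at 252, 212, 471 and 242 CPM in knockouts. Knockouts 1, 2 and 4 were lower than every control, and knockout 3 was above controls 1 and 2. The means of 493 ± 169 and 294 ± 119 CPM (SD, n = 4 each) gave a log2 fold change of -0.74 with an SE of 0.31 (adjusted p = 0.124 by edgeR). Without control 2 the log2 fold change was -0.94 with an adjusted p of 0.0260, and without knockout 3 it was -1.05 with an adjusted p of 0.0325, so that 1 library in either group decided the call. Those fits called 37.4% and 17.0% of all genes tested. Libraries with low Y-linked transcripts held 284 CPM in the control and 242 and 252 CPM in the knockouts.

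Cdh6, the cadherin of the forming proximal tubule (ENSMUSG00000039385, chr15:13034200-13173639, minus strand), showed 16.8, 12.2, 23.0 and 29.2 CPM in controls and 13.6, 7.73, 14.2 and 10.2 CPM in knockouts. Control 2 lay within the knockout range, and the other 3 controls were above every knockout. With means of 20.3 ± 7.40 and 11.4 ± 3.02 CPM (SD, n = 4 each), the log2 fold change was -0.83 (SE 0.28, adjusted p = 0.0763 by edgeR). Cdh6 passed without control 2 (log2 fold change -1.01, adjusted p = 0.0129 by edgeR), a fit that called 37.4% of all genes. It also passed with the Wald test of DESeq2, which called 24.4% of all genes, at an adjusted p of 0.0209. Its promoter window above is the one of the 3 shown that lacks the E-box form searched.

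Markers of proximal tubule had their lowest control and highest knockout in the same libraries as Cdh16 and Cdh6. Of 15 such markers tested, 14 were called lower, and their summed level ran from 616 to 2563 CPM in controls and from 90.7 to 424 CPM in knockouts, without overlap. Control 2 had the lowest sum of the controls and knockout 3 the highest of the knockouts. The same held for thick ascending limb, principal cell, intercalated cell and endothelial sums, but not for distal tubule or podocyte sums. Thick ascending limb markers were called lower in 7 of 9, with overlapping sums of 284 to 1250 CPM against 36.6 to 370 CPM. None of the proximal tubule, loop or other kidney markers was at 0 in every library. What part these cell types have in the levels of Cdh16, Cdh6 and Cdh1 was not tested.

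Epcam (ENSMUSG00000045394, chr17:87635979-87651106, plus strand) was the steadiest of the 4 epithelial genes, at 320, 350, 362 and 335 CPM in controls and 338, 339, 365 and 353 CPM in knockouts. The groups overlapped fully, and the coefficient of variation was 5.40% in controls and 3.60% in knockouts, against 34.3% and 40.5% for Cdh16. Its log2 fold change was 0.03 (SE 0.06, adjusted p = 0.745 by edgeR), and it lay between 0.01 and 0.06 under all 19 alternatives tried. A steady Epcam stood beside proximal tubule markers whose summed level did not overlap between the groups. The summed principal cell markers of the collecting duct, where Epcam is abundant, overlapped. They ran from 771 to 1404 CPM in controls and from 611 to 1264 CPM in knockouts.

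**Figure D3:**
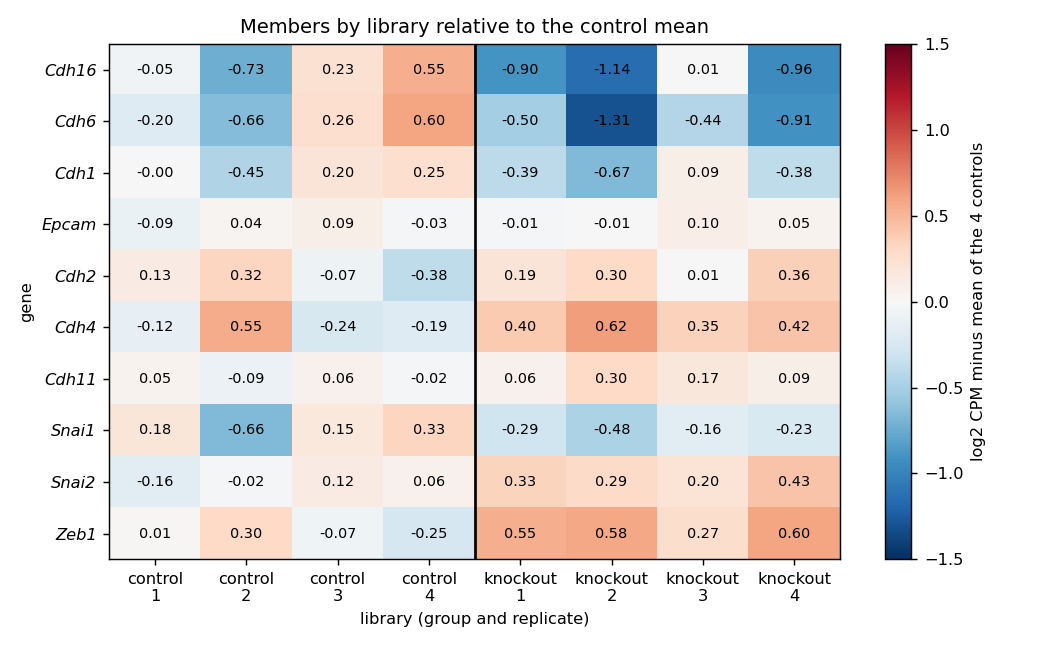
Heat map of the 10 genes (y axis) in the 8 libraries (x axis), as log2 CPM minus the mean of the 4 controls. Control 2 has low Cdh1, Cdh16 and Cdh6 like the knockouts, Cdh16 in knockout 3 is at 0.01, and Epcam lies between -0.09 and 0.10 throughout.

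None of the 3 remaining cadherins passed. Cdh2, N-cadherin, the main classical cadherin of the mouse proximal tubule (ENSMUSG00000024304, chr18:16588877-16809246, minus strand), was found at 54.0, 61.8, 47.1 and 38.0 CPM in controls and 56.4, 60.8, 49.7 and 63.4 CPM in knockouts. Control 4 was the lowest library and knockout 4 the highest, and the groups overlapped. The means of 50.2 ± 10.1 and 57.6 ± 5.99 CPM (SD, n = 4 each) had a log2 difference of 0.20 with an SE of 0.14 (adjusted p = 0.345 by edgeR). The proximal tubule markers had a median log2 fold change of -3.04 beside it, and their part in the level of Cdh2 was not tested. The ratio of Cdh2 to Cdh1, each per length, was 0.145, 0.225, 0.110 and 0.0853 in controls and 0.198, 0.258, 0.125 and 0.220 in knockouts. This ratio, often read as a switch from E- to N-cadherin, overlapped between the groups and is given here as a description.

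Cdh4, R-cadherin (ENSMUSG00000000305, chr2:179442431-179899373, plus strand), stood at 28.6, 45.6, 26.2 and 27.2 CPM in controls and 40.9, 47.9, 39.5 and 41.7 CPM in knockouts. Apart from control 2, which was above 3 of the 4 knockouts, the controls lay close together and below every knockout. The means were 31.9 ± 9.17 and 42.5 ± 3.70 CPM (SD, n = 4 each; log2 fold change 0.41, SE 0.17, adjusted p = 0.124 by edgeR). Without control 2 the log2 fold change was 0.63 and the adjusted p 0.00121, the lowest of any left-out library for this gene. That fit called 37.4% of all genes. In the libraries with low Y-linked transcripts the order was the opposite, with the control at 45.6 CPM and the knockouts at 40.9 and 41.7 CPM.

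Cdh11, the mesenchymal cadherin (ENSMUSG00000031673, chr8:102632095-102785642, minus strand), had 380, 345, 383 and 363 CPM in controls and 383, 451, 414 and 391 CPM in knockouts. The lowest knockout was level with the highest control, and the other knockouts were above every control. The means of 368 ± 17.6 and 410.0 ± 30.7 CPM (SD, n = 4 each) gave a log2 fold change of 0.16 with an SE of 0.07 (adjusted p = 0.138 by edgeR). Split by Y-linked transcripts, knockouts stood at 414 to 451 against 363 to 383 CPM in controls and at 383 to 391 against 345 CPM. The lowest knockout and the highest control fall in different sets, so this order follows from the levels above. With Y-linked transcripts as a covariate Cdh11 passed at an adjusted p of 0.0497, in a fit that called 11.2% of all genes.

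Snai2, the Slug repressor (ENSMUSG00000022676, chr16:14705852-14709395, plus strand), was measured at 31.6, 35.0, 38.5 and 36.9 CPM in controls and at 44.6, 43.2, 40.8 and 47.7 CPM in knockouts. Every knockout was above every control, the one gene of the 10 for which the groups did not overlap; 18.9% of all genes tested had groups that did not overlap, with the knockouts above in 9.29% and below in 9.58%. Snai2 rose from 35.5 ± 2.97 to 44.1 ± 2.88 CPM (SD, n = 4 each), a log2 fold change of 0.31 with an SE of 0.08 (adjusted p = 0.0352 by edgeR). Split by Y-linked transcripts, knockouts stood at 40.8 to 43.2 against 31.6 to 38.5 CPM in controls and at 44.6 to 47.7 against 35.0 CPM. Since no knockout overlapped a control, any split gives this order, and it is no further observation.

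Zeb1, a repressor of Cdh1 (ENSMUSG00000024238, chr18:5591860-5775467, plus strand), showed 63.3, 77.3, 59.7 and 52.7 CPM in controls and 91.6, 94.0, 75.4 and 94.7 CPM in knockouts. Control 2 was slightly above knockout 3, and apart from this pair the groups did not meet. Zeb1 rose from 63.3 ± 10.3 to 89.0 ± 9.12 CPM (SD, n = 4 each), a log2 fold change of 0.49 with an SE of 0.12 (adjusted p = 0.0329 by edgeR). Split by Y-linked transcripts, knockouts stood at 75.4 to 94.0 against 52.7 to 63.3 CPM in controls and at 91.6 to 94.7 against 77.3 CPM. The pair that overlapped falls in different sets, so this order follows from the levels above and is no further observation. The antisense gene Gm10125 overlaps Zeb1, at 5.18 CPM or 6.81% of its level, and the strand setting of the counting is not given in the sources used here.

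Snai1 (ENSMUSG00000042821, chr2:167538195-167542814, plus strand) did not pass. It was counted at 10.6, 5.89, 10.4 and 11.7 CPM in controls and 7.6, 6.68, 8.37 and 7.95 CPM in knockouts. Controls 1, 3 and 4 were above every knockout, and control 2 was below all of them. The means of 9.65 ± 2.57 and 7.65 ± 0.722 CPM (SD, n = 4 each) gave a log2 fold change of -0.33 with an SE of 0.21 (adjusted p = 0.270 by edgeR). It rested on the fewest reads of the 10 genes, 127 to 258 counts a library. Without control 2 its log2 fold change was -0.51 and the adjusted p 0.0151, in a fit that called 37.4% of all genes. Among libraries with low Y-linked transcripts the control, at 5.89 CPM, was below the knockouts at 7.6 and 7.95 CPM, the opposite of the other set, with controls at 10.4 to 11.7 and knockouts at 6.68 to 8.37 CPM.

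The calls of Snai2 and Zeb1 depended on which libraries were used. Both were kept without control 2 or without knockout 3, fits that called 37.4% and 17.0% of all genes. They were lost, with the direction unchanged, when control 1, 3 or 4 or knockout 1, 2 or 4 was left out. The adjusted p then reached 0.0982 for Snai2 and 0.0970 for Zeb1, and the number of calls over all genes dropped from 2751 to between 153 and 695 in those 6 fits. Without the 3 libraries with adrenal transcripts the log2 fold changes were 0.26 for Snai2 (adjusted p = 0.429 by edgeR) and 0.34 for Zeb1 (adjusted p = 0.424), with 2 knockouts left and 0.00522% of all genes called. With the adrenal marker level as a covariate they were 0.27 (adjusted p = 0.0976) and 0.49 (adjusted p = 0.0768), where 6.46% of all genes were called. With Y-linked transcripts as a covariate Zeb1 passed at 0.0354 and Snai2 missed at 0.0563.

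Markers of cells that are known to express these repressors were set beside them. Of 8 markers of stroma, 2 were called higher and 1 lower, and their summed level was 765 to 999 CPM in controls and 953 to 1069 CPM in knockouts, with overlap. Pdgfra, a receptor of interstitial fibroblasts, rose (log2 fold change 0.90, adjusted p = 0.00575 by edgeR), and Meox1 fell by 1.45 on the log2 scale (adjusted p = 0.0132). Of 6 leukocyte markers tested, 2 were called higher, Ptprc and C1qa, with sums of 75.2 to 93.0 CPM against 91.1 to 113 CPM. Nephron progenitor markers, which include Six2, had 3 of 10 called lower (Lhx1, Cited1 and Meox2) and none called higher. By direction alone 6 were higher and 4 lower, and the sums were 696 to 921 against 726 to 913 CPM. Six2 itself was not called and was present in every library, at 96.9 to 162 CPM in controls and 135 to 219 CPM in knockouts. The part of these cells in the rise of Snai2 and Zeb1 was not tested.

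**Figure D4:**
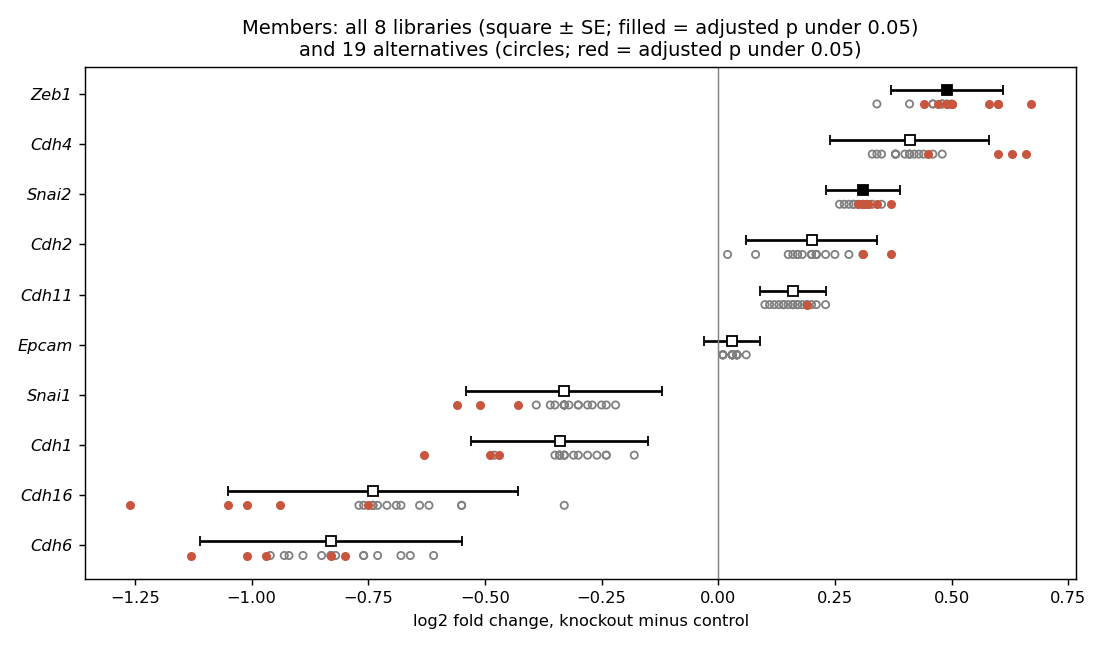
Log2 fold change, knockout minus control (x axis), of each of the 10 genes with all 8 libraries (square, with its SE, filled where the adjusted p is under 0.05) and under the 19 alternatives (circles, red where the adjusted p is under 0.05). No gene changes sign, Zeb1 is called under 11 alternatives and Snai2 under 9, and Epcam is called under none. The 11 and the 9 include a refit of identical counts, which repeats the fit with all 8 libraries.

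The genes whose log2 CPM ran most closely with each member over the 8 libraries are given by Pearson's r as a description, with 14298 genes compared. Zeb1 ran with Dtna (r = 0.997), Prrg3 (0.995) and Ube4b (0.994). Snai2 ran with Mapk1ip1 (0.959), Rp2 (0.958) and Spag1 (0.956), and Snai1 with Arhgef3 (0.983), Bicd2 (0.978) and Fstl3 (0.978). Cdh16 ran with Fam234a (0.997), Cdc42ep1 (0.994) and Cdipt (0.993), Cdh6 with Ube2m (0.992) and Slc6a8 (0.992), and Cdh1 with Vasp (0.990), Kcnj5 (0.988) and Anxa11 (0.986). Cdh4 ran with Dhrs3 (0.992), Runx1t1 (0.989) and Phf14 (0.988), Cdh2 with Rpl22l1 (0.985), Nap1l1 (0.979) and Sharpin (0.978), and Cdh11 with Plod1 (0.969), Snx2 (0.965) and Tnfrsf1b (0.960). Epcam had the lowest values, with Cabyr (0.933), Plk5 (0.917) and Anapc10 (0.894). The 8 libraries behind each r share the group difference and the marker levels described above.

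The surroundings of these genes were described by 9 lists of junction proteins, regulators and pathway genes, with 29 of 132 genes tested called (22.0%, against 14.9% of all genes), 17 of them higher and 12 lower. The lists were chosen with earlier results of these data known, and the 29 include Kdm1a itself, so these shares are a description. Among the 13 other cadherins tested, Cdh22 rose from 6.86 ± 3.73 to 19.8 ± 3.37 CPM (SD, n = 4 each; log2 fold change 1.53, SE 0.32, adjusted p = 0.0212 by edgeR). Cdh3, P-cadherin, rose from 56.6 ± 5.21 to 73.1 ± 3.86 CPM (log2 fold change 0.37, adjusted p = 0.0233), and none of the 13 was called lower. Of 15 partners of cadherins at the adherens junction, Ctnnd1 (p120-catenin, which steadies cadherins at the membrane) was called higher at a log2 fold change of 0.31 (adjusted p = 0.0312). Its relatives Pkp4 and Arvcf were called lower, at -0.40 (adjusted p = 0.0289) and -0.29 (adjusted p = 0.0437). Ctnnb1, beta-catenin, was at -0.13 with an adjusted p of 0.106.

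Regulators of the epithelial state moved in both directions, with 2 of 17 called higher and 3 lower. Ovol2, a repressor of Zeb1, rose by 0.99 on the log2 scale (adjusted p = 0.0226 by edgeR) and Klf5 by 0.77 (adjusted p = 0.0321). Genes called lower included the tubule transcription factor Hnf4a, at -2.26, and the splicing factor Esrp2, at -1.62, both named after their values were seen. Esrp1, the paralog of Esrp2, was at -0.09 (adjusted p = 0.604).

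Of 24 genes of epithelial structure, 2 were called higher and 6 lower, and the median log2 fold change was -0.60. The tight junction scaffold Tjp1 rose by 0.31 on the log2 scale (adjusted p = 0.0132 by edgeR), and the desmosome protein Pkp2 fell by 0.67 (adjusted p = 0.0197). Among 7 partners of Epcam, Cldn1, a claudin that Epcam binds, rose from 133 ± 42.6 to 269 ± 59.1 CPM (SD, n = 4 each; log2 fold change 1.02, adjusted p = 0.0289). Its groups overlapped, with control 2 at 187 CPM and knockout 3 at 185 CPM. The other 6 partners were lower without a call, and the median log2 fold change of the 7 was -0.29. The protease inhibitors Spint2 and Spint1, at -0.58 and -0.86, did not pass, with adjusted p of 0.0516 and 0.0594.

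None of the 11 other factors of the epithelial to mesenchymal transition tested was called. Zeb2, the paralog of Zeb1, was at a log2 fold change of -0.09 and Twist1 at 0.37, and the smallest adjusted p were those of Foxc2 (-0.38, adjusted p = 0.0730 by edgeR), Sox9 (0.91, adjusted p = 0.109) and Tcf4 (0.82, adjusted p = 0.111). Of 18 mesenchymal genes, 5 were called higher and none lower, with a median log2 fold change of 0.39. By direction alone 14 were higher and 4 lower. The lower ones, none of them called, included Acta2 (-0.22), Tagln (-0.51) and S100a4 (-0.59). Lox, which cross-links collagen, rose from 117 ± 15.8 to 215 ± 37.9 CPM (SD, n = 4 each; log2 fold change 0.88, adjusted p = 0.0125), the matrix protease Mmp2 rose by 0.41 (adjusted p = 0.0217) and the filament protein Vim by 0.32 (adjusted p = 0.0234). Beside them stand the stromal and leukocyte markers given above.

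Among 18 genes of TGF-beta signalling, a pathway known to induce these repressors, 3 were called higher and none lower, and the median was 0.07. These were Bmp7 (log2 fold change 0.26, adjusted p = 0.0215 by edgeR), Tgfb2 (0.51, adjusted p = 0.0264) and Ltbp1 (0.48, adjusted p = 0.0324). In the list of SNAG-domain factors and LSD1 complex members, 9 of 11 were tested. Kdm1a was the gene called lower and Rcor2, a CoREST paralog that binds LSD1, the one called higher (log2 fold change 0.51, adjusted p = 0.0198), and Phf21a missed at 0.37 (adjusted p = 0.0502). The number of called genes over these 9 lists was 29 with all libraries and lay between 1 and 72 when 1 library was left out. It was 1 without knockout 4 (0.819% of all genes called) and 72 without control 2 (37.4%).

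**Figure D5:**
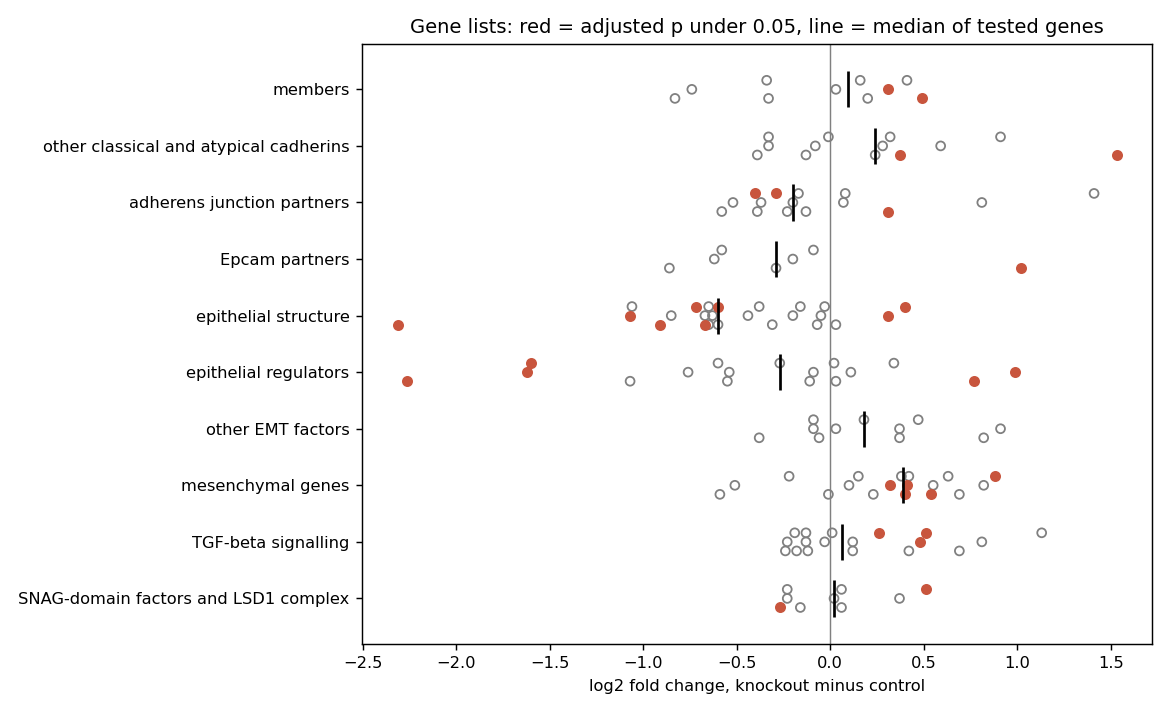
Log2 fold change, knockout minus control, of the genes tested in each of the 9 lists and of the 10 genes described here, with 1 circle a gene, red where the adjusted p is under 0.05, and a line at the median. The epithelial structure list has the lowest median at -0.60 and the mesenchymal list the highest at 0.39.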

How the data were processed

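RNA was sequenced from 4 control and 4 knockout kidneys, as poly(A)-selected libraries per the labels' protocols. The authors deposited whole-number counts per Ensembl gene with gene coordinates and lengths, per the file headers. Trimmomatic 0.36, STAR 2.5.2b, Subread 1.5.2 with featureCounts, DESeq2 and the build GRCm38 are named in the submitters' processing notes. The strand setting and the treatment of multi-mapping reads are not given in the sources used here. Each deposited Length, another deposited column, was used as the exon bases of its gene. Symbols were joined by Ensembl ID, and 48970 of 49315 IDs matched. The counts per library were identical to those of the table for the whole series. No pair of libraries was a duplicate by chi-square.

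Counts were filtered (filterByExpr), scaled by TMM and tested with edgeR 4.0.16 in R 4.3.3 (glmQLFit and glmQLFTest, all 8 libraries, no covariate), with Benjamini-Hochberg adjustment over 18485 genes and a threshold of 0.05. The code was tested on simulated data. Alternatives were DESeq2 1.42.0 size factors and Wald test, limma 3.58.1 (voom with sample weights), other filters, a replicate block, Y-linked and adrenal covariates, and libraries left out. A further alternative refitted the counts given for the whole series, which were identical, so it repeats the main fit by construction. Named genes were all 10 members, Kdm1a, up to 3 genes a list with the smallest adjusted p, and the 3 genes with the highest r per member; any other named gene was chosen after its values were seen. Some genes that this rule names are not reported here. The members and lists were chosen with earlier results of these data known. The precision given by the depth is set by the counts per gene, and nothing was corrected for cell composition.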

Additional observations from a re-analysis of the deposited data

Results flagged for a closer look

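Among 22 groups of 4 libraries (the 10 genes and Kdm1a in each group), 3 held a library far from the other 3, where chance gives about 1 in 20 groups. Cdh4 stood at 45.6 CPM in control 2, with the next control at 28.6 CPM, a gap of 0.878 of the group's range. Cdh16 stood at 471 CPM in knockout 3, with the next knockout at 252 CPM, a gap of 0.847 of the range. Zeb1 stood at 75.4 CPM in knockout 3, with the next knockout at 91.6 CPM, a gap of 0.839 of the range. In each case the library lay toward the other group. These are also the libraries that earlier results placed between the groups, so the gaps are no independent observation.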

How the results depend on the processing

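No gene of the 10 changed sign under any of the 19 alternatives, and of 190 values 149 kept their side of the threshold, 23 passed newly and 18 were lost. The 149 include the refit of identical counts, which repeats the main fit by construction. The count of genes called, 2751 with all libraries, was 4506 with the DESeq2 Wald test, 8302 with limma-voom, 1195 with the adrenal covariate and 1 without the 3 adrenal libraries; with 1 library left out it ran from 153 to 7084. The 2 calls among the 10 genes became 8 with limma-voom (44.9% of all genes called) and 1 without a filter on low counts (7.36%). They became 0 with the adrenal covariate (6.46%) and 0 without the 3 adrenal libraries (0.00522%). With 1 library left out they ran from 0 to 7 (0 in 6 of these 8 fits). The 7 came without control 2, where 37.4% of all genes were called. The 29 calls over the 9 lists became 52 with DESeq2, 84 with limma-voom, 16 with the adrenal covariate and 0 without the adrenal libraries, and ran from 1 to 72. Kdm1a ran from -0.24 to -0.29 with 1 library left out and missed at -0.29 without the adrenal libraries. Without control 2 and knockout 3, 7903 genes (42.7% of those tested), 8 of the 10 and 89 list genes were called. These libraries were chosen for lying between the groups, so leaving them out widens the difference by construction.

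The labels do not state whether the replicate numbers pair the libraries. Deviations of same-numbered libraries correlated at -0.108, 0.329, 0.228 and -0.059, and 1 of 4 numbers was closest to itself. So few values cannot decide whether the libraries are paired. A replicate block gave 3229 calls (17.5% of all genes), 5 of the 10 genes (Cdh4, Cdh6, Cdh16, Snai2 and Zeb1) and 53 list genes. Depth limits Snai1 most, at 127 to 258 counts a library. Except for the lines above, the cause of these changes was not tested.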

Other observations

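Other nephron segments and supporting cells were measured beside these genes. Distal tubule markers had 3 of 6 tested called lower, intercalated cell markers 1 of 7, podocyte markers 2 of 7 and endothelial markers 1 of 8, with none called higher. Principal cell markers had 3 of 9 tested called higher and none called lower. The other 6 were lower without a call, and the median log2 fold change was -0.31. None of the urothelial, mesothelial, erythroid, neural crest, gonad or adrenal markers tested was called in either direction. By direction alone, 10 of 10 adrenal markers tested were higher, with a median log2 fold change of 3.76. So were 6 of 6 erythroid (median 0.42), 4 of 4 neural crest (0.83) and 5 of 6 mesothelial markers (0.69). Urothelial markers were higher in 4 of 8 (median -0.05) and gonad markers in 2 of 3 tested (0.42). The gonad markers were highest in knockout 1 at 53.9 CPM and control 2 at 47.5 CPM. Of 6 injury markers, 1 was called lower, Spp1.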
